A study of Mus musculus with 6 samples.

Results

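The cytosolic ribosomal protein genes were followed in whole mouse hearts of embryonic stage E13.5, with 1 heart per library. They were taken by symbol as every listed row named Rpl or Rps with a number and at most 1 letter, together with Rplp0, Rplp1, Rplp2, Rpsa, Rps27l, Rpl22l1 and Rpl3l, leaving out Rps6 kinases and rows named as pseudogenes. The rule used no measured value and found 82 genes among 46983 listed: 32 of the small subunit, 47 of the large subunit and the 3 stalk genes. The mutants were Tnnt2 Cre/+;Wt1 flox/flox embryos (replicates 1, 5 and 10). The controls were replicates 2, 3 and 5. By the study's methods they carried the same floxed Wt1 alleles without Cre, and the labels call them wild type. Strain was C57BL/6 x DBA/2 in both groups. The cardiac troponin T promoter drives this Cre in cardiomyocytes, and the study expects deletion also in part of the epicardium and of the mesenchyme that derives from it, so the model is not limited to cardiomyocytes. In a whole organ, fewer cells of a type and less RNA per cell cannot be told apart.

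Each ribosome joins a small subunit, which reads the messenger RNA, to a large subunit, which forms the peptide bond and carries a stalk that recruits translation factors. One copy of nearly every ribosomal protein goes into each particle, so these genes are known for closely matched output and for very abundant, short messenger RNAs. Most of those messengers start with a stretch of pyrimidines that places their translation under growth control through mTOR. The same genes have also seeded many processed pseudogenes, copies without introns that resemble the spliced message almost base for base.

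The hearts gave between 44244665 (control replicate 5) and 56373393 counts. Wt1 was counted at 39.95, 32.9 and 19.96 CPM (counts scaled to library size after TMM normalization) in control replicates 2, 3 and 5 and at 17.7, 33.3 and 35.7 in mutant replicates 1, 5 and 10, so the targeted gene did not separate the groups, though a count over the whole gene need not show a deleted exon. All 6 cardiomyocyte markers (Myh6, Myh7, Tnnt2, Nppa, Ryr2, Actn2) passed 1 CPM in every heart. Control replicate 5 stood apart: its cardiomyocyte markers summed to 7408 CPM against 10078 to 12221 in the other 5 hearts. Its levels were lower for longer genes, with a Spearman rho of -0.56 between length and deviation from the gene's own mean over 11795 genes, against -0.062 to 0.46 elsewhere. Erythroid markers summed to 39117 CPM there and 42410.1 in mutant replicate 10, above 12382 to 16749 in the rest. Hepatocyte markers reached 761 CPM in control replicate 3 and at most 20.3 elsewhere.

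RefSeq start sites on GRCm38.p6 were at hand for 61 of the 82 genes, and 29 of them (47.5%) held an unbroken run of at least 8 C or T bases reaching within 10 bases of a start on the coding strand. Over all 27025 genes with a start in that table the share was 15.8%. The letters CTTTCC on the coding strand, from 50 bases before to 50 after the start, were present in 19 of the 61 (31.1%) and in 5.43% of all genes, and many of these matches lie inside such a run. CCGGAAGT, on either strand of the 300 bases, was present in 12 (19.7%, against 4.31%), and TATAAA on the coding strand in the 50 bases before the start in 1 (1.64%, against 3.15%). The starts of genes described further on are given to show this shared feature, with the pyrimidine run in capitals and the annotated start at base 16 of the 30.
Rps6 (chr4:86857353-86857382, minus strand): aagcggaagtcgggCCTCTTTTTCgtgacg
Rps26 (chr10:128626492-128626521, minus strand): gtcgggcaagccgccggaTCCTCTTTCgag
Rps27 (chr3:90213634-90213663, minus strand): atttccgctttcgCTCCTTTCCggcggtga
Rplp2 (chr7:141447636-141447665, plus strand): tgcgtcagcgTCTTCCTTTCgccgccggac
Rpl22l1 (chr3:28805493-28805522, plus strand): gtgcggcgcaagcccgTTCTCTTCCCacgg
Rpl35 (chr2:39005117-39005146, minus strand): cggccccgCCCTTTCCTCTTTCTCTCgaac
Rpl38 (chr11:114668565-114668594, plus strand): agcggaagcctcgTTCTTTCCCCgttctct

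Together the 82 genes took 4.25, 4.73 and 7.44% in control replicates 2, 3 and 5, and 5.24, 4.33 and 4.72 in mutant replicates 1, 5 and 10, of all counts. Control replicate 5 was the highest of the 6 hearts, and the other 5 lay between 4.25% and 5.24%, where controls and mutants were interleaved. Group means were 5.47% ± 1.72 in controls and 4.77% ± 0.457 in mutants (SD, n = 3 each), a difference smaller than the control spread. Without control replicate 5 the control mean was 4.49%, below the mutant mean. Both subunits contributed similarly in every heart: the small subunit took 1.79% to 3.35% of counts, the large subunit 2.06% to 3.41% and the 3 stalk genes 0.348% to 0.670%. The 77 mitochondrial ribosomal protein genes, which serve the separate ribosome inside mitochondria, took 0.373% to 0.504%, again highest in control replicate 5.

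Heart by heart, the ribosomal protein genes deviated together. For the 80 that passed the low-count filter (all but Rpl39l and Rpl10l), the median deviation of log2 CPM from each gene's own mean over the 6 hearts was -0.20, -0.11 and 0.52 in control replicates 2, 3 and 5, and 0.036, -0.23 and -0.052 in mutant replicates 1, 5 and 10. In control replicate 5, 77 of 80 genes lay above their own mean and 73 had their highest level of all hearts there. In mutant replicate 5 only 3 lay above their mean, in control replicate 3 only 5, and mutant replicate 1 was the second highest heart with 49. Mitochondrial ribosomal protein genes followed the same order in part, at 0.27 in control replicate 5 and -0.15 in mutant replicate 5 over 76 genes. The median over all 17473 genes tested stayed between 0.0029 and 0.015. The spread within the controls on this scale, from -0.20 to 0.52, was wider than that within the mutants, from -0.23 to 0.036.

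**Figure D1:**
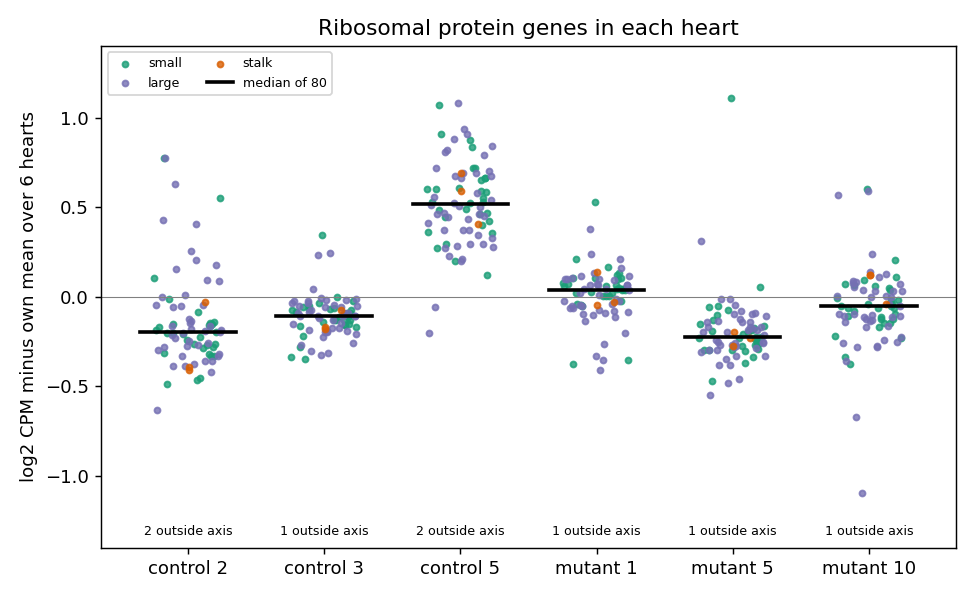
Deviation of log2 CPM from each gene's own mean over the 6 hearts (vertical axis) for 80 ribosomal protein genes in each heart (horizontal axis), coloured by subunit, with the median as a black line and points beyond 1.4 counted at the bottom. The medians run from -0.23 in mutant replicate 5 to 0.52 in control replicate 5, while the other 2 controls lie at -0.20 and -0.11.

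Whether loss of Wt1 in the troponin T lineage altered the ribosomal protein genes was asked by comparing the 3 mutant with the 3 control hearts. In edgeR's quasi-likelihood fit no ribosomal protein gene passed the threshold of 0.05 on the adjusted p, as for 0% of all 17473 genes tested. At an unadjusted p under 0.05, 6 of 80 were lower and 0 higher in mutants, against 2.59% and 3.14% of all genes. Of the 81 it tested, DESeq2 gave 10 lower, 0 higher and 0 past the adjusted threshold. Over the 26776 genes in that fit the shares were 2.1%, 2.21% and 0.497%. The fitted value was below 0 for 74 of 80, against 50.2% of all genes, with a median log2 fold change of -0.21 beside -0.000995 over all genes. That direction rested on 1 heart. Without control replicate 5, 56 of 80 were above 0 and the median was 0.076, with 1 higher and 6 lower at the unadjusted threshold and 0 past the adjusted one. Over all genes in that fit, 50.7% were above 0, 6.54% were higher and 5.69% lower at the unadjusted threshold, and 0.247% passed the adjusted one. The groups did not overlap for 4 of 80 genes that were lower in every mutant (Rpl21, Rpl23, Rpl30 and Rpl37a, against 4.59% of all genes) and for 1 that was higher (Rpl3l, against 6.61%).

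The fitted difference was graded by gene length. Among the tested genes under 500 bases, 10 of 10 were below 0 with a median of -0.33. From 500 to 1000 bases it was 50 of 55 with -0.23, and at 1000 bases and over 14 of 15 with -0.12. All genes tested showed the same grading, with medians of -0.23, -0.067 and 0.016 in the 3 classes. Of them 475 of 659, 1652 of 2549 and 6647 of 14265 were below 0. After each heart's trend with length was removed, the median over the 80 genes was -0.11, with 68 below 0. Over all genes it was 0.013, with 8230 of 17473 below 0. In control replicate 5, the ribosomal protein genes of 1000 bases and over had a median deviation of 0.46 and all genes of that class -0.045. Without that heart, all 15 of the long members were above 0 (median 0.11) and 6 of the 10 short ones below (median -0.014). Of all genes, 7005 of 14265 long ones were then above 0 and 324 of 659 short ones below.

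**Figure D2:**
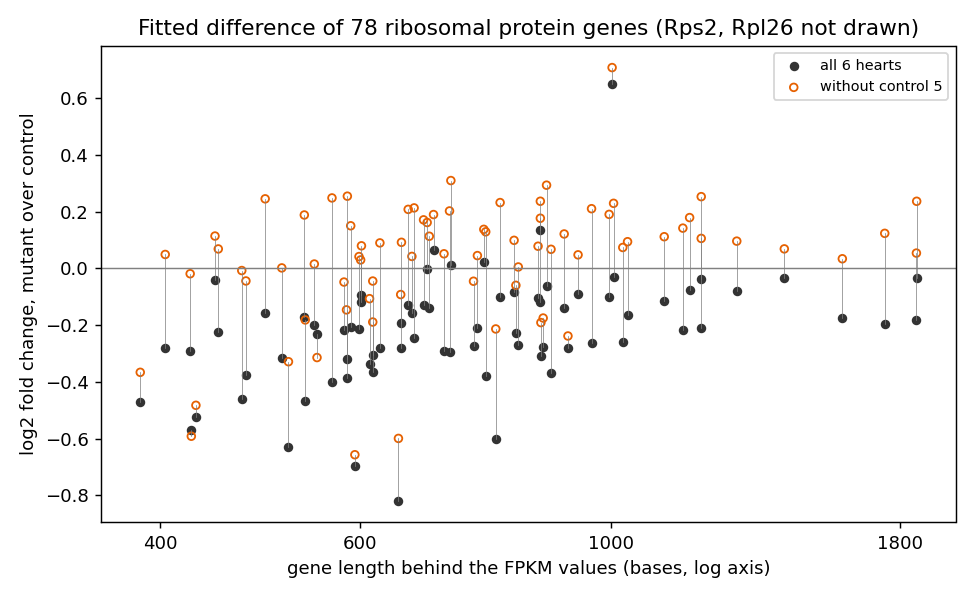
Fitted log2 fold change of mutant over control (vertical axis) against gene length in bases (horizontal log axis) for 78 ribosomal protein genes, with all 6 hearts (filled) and without control replicate 5 (open), joined by a line per gene. Of the 80 tested genes 74 are below 0 with all hearts. Without that heart 56 are above 0 and 24 below, among them Rps28, Rps29, Rpl38, Rpl35 and Rpl22l1.

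The 6 genes with an unadjusted p under 0.05 were all lower in mutants, and none passed adjustment in edgeR. Without control replicate 2, 0 of the 6 stayed under that unadjusted threshold, without mutant replicate 10 only Rps28 and without mutant replicate 1 only Rpl22l1 and Rpl35. Of the small subunit, Rps28 was counted at 140.4, 85.3 and 123 CPM in control replicates 2, 3 and 5, and 74.9, 85.6 and 81.7 in mutant replicates 1, 5 and 10. Control replicate 3 lay among the mutants, and the group means were 116 ± 28.1 against 80.8 ± 5.44 (SD, n = 3 each). Its log2 fold change was -0.52 (SE 0.18, adjusted p = 0.728 in edgeR), and -0.48 without control replicate 5. Rps29, a zinc-binding protein of the small subunit head, reached 287, 138 and 203 CPM in control replicates 2, 3 and 5, and 129, 161 and 133 in mutant replicates 1, 5 and 10. Again control replicate 3 lay inside the mutant range, with a log2 fold change of -0.57 (SE 0.24, adjusted p = 0.862 in edgeR), and -0.27 without control replicate 2.

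Among large subunit genes, Rpl38, whose dosage is known to matter for skeletal patterning in mice, was at 124, 82.6 and 126 CPM in control replicates 2, 3 and 5, and 77.8, 85.7 and 76.8 in mutant replicates 1, 5 and 10. The groups overlapped through control replicate 3, and the log2 fold change was -0.47 (SE 0.17, adjusted p = 0.763 in edgeR). Rpl22l1, a paralog of Rpl22, was at 24.1, 12.7 and 27.5 CPM in control replicates 2, 3 and 5, and 14.6, 11.97 and 9.81 in mutant replicates 1, 5 and 10. Control replicate 3 fell within the mutant range here too, and the log2 fold change was -0.82 (SE 0.28, adjusted p = 0.739 in edgeR), or -0.60 without control replicate 5. Rpl35, at the exit of the peptide tunnel, was at 57.4, 27.8 and 46.2 CPM in control replicates 2, 3 and 5, and 32.1, 22.9 and 26.2 in mutant replicates 1, 5 and 10. For Rpl35 the log2 fold change of -0.70 (SE 0.25, adjusted p = 0.767 in edgeR) became -0.44 (adjusted p = 0.877) once near-identical copies elsewhere in the genome were added, and -0.45 without control replicate 2. Of the exon bases of Rpl35, 66.2% are shared with Wdr38 on the opposite strand, which held at most 8 counts in any heart. The strand setting of the counting is not given, so whether reads over these bases were lost as ambiguous is unknown. Rpl21 was at 128, 119 and 135 CPM in control replicates 2, 3 and 5, and 105, 114 and 94.9 in mutant replicates 1, 5 and 10, every mutant below every control, with a log2 fold change of -0.28 (SE 0.11, adjusted p = 0.827 in edgeR). With its 45 listed copies added the difference was -0.095 (adjusted p = 0.985) and the groups overlapped.

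Besides Rpl21, 3 large subunit genes were lower in every mutant than in every control. Rpl30 was at 328, 306 and 387 CPM in control replicates 2, 3 and 5, and 291, 265 and 286 in mutant replicates 1, 5 and 10. Its closest pair of hearts, control replicate 3 and mutant replicate 1, was only 306 against 291 CPM, and the fitted log2 fold change was -0.28 (SE 0.12, adjusted p = 0.879 in edgeR). Rpl37a was at 371, 322 and 479 CPM in control replicates 2, 3 and 5, and 321, 308 and 311 in mutant replicates 1, 5 and 10. The mutants were tightly grouped here and control replicate 3 lay just above them, with a log2 fold change of -0.32 (SE 0.15, adjusted p = 0.914 in edgeR). Rpl23, at 490.1, 484 and 594 CPM in control replicates 2, 3 and 5, and 454, 484 and 433 in mutant replicates 1, 5 and 10, had a log2 fold change of -0.19 (SE 0.12, adjusted p = 0.967 in edgeR), and control replicate 3 was above mutant replicate 5 by less than 1 CPM. Without control replicate 5 the values for these genes were -0.18, -0.15 and -0.093, the same sign and closer to 0.

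In Rps14 and Rpl41, both very abundant, control replicate 5 stood far above the other hearts. Rps14, a small subunit protein known from the 5q- blood syndrome, was at 1144, 1379 and 3378 CPM in control replicates 2, 3 and 5, and 1861, 1159 and 1493 in mutant replicates 1, 5 and 10. Rpl41, which encodes the smallest of the ribosomal proteins, was at 923, 962 and 2548 CPM in control replicates 2, 3 and 5, and 1324, 927 and 1106 in mutant replicates 1, 5 and 10. In both, control replicates 2 and 3 were below mutant replicate 1, and control replicate 5 was the highest heart by far. Their log2 fold changes turned from -0.39 (SE 0.39) and -0.40 (SE 0.38) to 0.25 and 0.25 without that heart. Rps26, also among the 5 highest per length, was far steadier, at 626, 695 and 885 CPM in control replicates 2, 3 and 5, and 695, 695 and 754 in mutant replicates 1, 5 and 10.

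The stalk genes showed how far control replicate 5 stood from the rest. Rplp0, the base of the stalk and a frequent reference gene for RNA measurements, was at 1894, 2232 and 3790.2 CPM in control replicates 2, 3 and 5, and 2768, 2075 and 2739 in mutant replicates 1, 5 and 10. Control replicate 5 was the highest and control replicate 2 the lowest, so the controls enclosed all 3 mutants. Rplp1 followed the same order at both ends, from 1132 CPM in control replicate 2 to 2397 in control replicate 5. Rplp2 had a narrower range, from 351 CPM in mutant replicate 5 to 546 in control replicate 5. Their log2 fold changes were -0.062 (SE 0.26), -0.16 (SE 0.27) and -0.22 (SE 0.15), and 0.29, 0.24 and -0.048 without control replicate 5.

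Genes of known importance for growth control or disease followed the others. Rps6, the substrate of the S6 kinases, was at 877, 951 and 1282 CPM in control replicates 2, 3 and 5, and 1043, 899.9 and 993 in mutant replicates 1, 5 and 10, with a log2 fold change of -0.083 (SE 0.16), and 0.098 without control replicate 5. Rps19, the gene first linked to Diamond-Blackfan anaemia, was at 572, 592 and 947 CPM in control replicates 2, 3 and 5, and 648, 515 and 589 in mutant replicates 1, 5 and 10, with a log2 fold change of -0.27 (SE 0.21), and 0.0047 without control replicate 5. Both had their highest level in control replicate 5, and their groups overlapped. Rpl5, which with 5S RNA binds the p53 regulator Mdm2, was at 933, 1129.7 and 1634 CPM in control replicates 2, 3 and 5, and 1230.3, 999 and 1073 in mutant replicates 1, 5 and 10, with a log2 fold change of -0.16 (SE 0.21), and 0.094 without control replicate 5. Rpl11, its partner in that complex, ranged from 600.03 CPM in mutant replicate 5 to 1214 in control replicate 5 (log2 fold change -0.28, SE 0.26, and 0.089 without control replicate 5). Rpsa, also known as a laminin-binding protein, ranged from 1484 CPM in control replicate 2 to 2575 in control replicate 5 (log2 fold change -0.033, SE 0.22, and 0.24 without control replicate 5). Rps27a, made as a fusion with ubiquitin, spanned 489 to 1238 CPM within the controls alone and 558 to 705 in the mutants.

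The 18 small subunit genes not described one by one ran from Rps21 (206 CPM on average) to Rps3 (1327 CPM), and 18 of them were highest in control replicate 5. The log2 fold change highest among them was -0.077 (Rps13), with 18 below 0 and no adjusted p under 0.968 in edgeR. Without control replicate 5 they lay between -0.046 (Rps23) and 0.21 (Rps7), with 16 above 0. The 24 large subunit genes not described one by one ran from Rpl19 (139 CPM on average) to Rpl8 (1036 CPM), and 23 of them were highest in control replicate 5. Their log2 fold changes lay between -0.60 (Rpl7a) and 0.011 (Rpl29), with 23 below 0 and no adjusted p under 0.909 in edgeR. Without control replicate 5 they lay between -0.21 (Rpl7a) and 0.31 (Rpl29), with 18 above 0.

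The steadiest genes over the 6 hearts, among 78 above 10 CPM on average, were Rpl4, Rps4x and Rps4l, with an SD of log2 CPM of 0.12, 0.14 and 0.15 against a median of 0.30. Rpl4, a core protein of the large subunit, stayed between 1277 and 1635 CPM. The 3 most variable were Rpl26 (2.28), Rps2 (2.25) and Rpl22l1 (0.59). The levels were also measured against the median of the ribosomal protein genes in the same heart, which takes out their shared movement. On this scale 11 of 80 were higher in every mutant than in every control (6.69% of all genes) and 1 was lower (1.08%). The subtraction puts that movement, with its sign reversed, into all other genes, so these shares are not a like-for-like background. On CPM the shares over all genes were 6.61% and 4.59%. The 11 higher genes were Rpl10, Rpl10a, Rpl13, Rpl15, Rpl27a, Rpl3l, Rpl7, Rps13, Rps25, Rps4l and Rpsa, and the lower one was Rps12. Rpl7 was the clearest among the abundant ones, at 0.90, 1.01 and 0.94 log2 units in control replicates 2, 3 and 5, and 1.16, 1.12 and 1.11 in mutant replicates 1, 5 and 10, above that median, a difference in means of 0.18. Apart from Rpl3l and Rps4l, the differences in means were between 0.084 (Rpl13) and 0.25 (Rpl10), and Rps12 was at -0.15. This scale was added after the data were seen and carries no test.

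Per length, the levels of the 81 counted genes were close together for most and far apart for a few. Within each heart, 55 to 57 of them lay within 2-fold of the median, which was 637 to 1126 FPKM, and 6 or 7 lay below 0.1 times it. The 5 highest by mean FPKM were Rplp1 (3085, range 2321 to 4819), Rps14 (2965, 1985 to 5747), Rplp0 (2941, 2192 to 4301), Rpl41 (2288, 1643 to 4473) and Rps26 (1621, 1422 to 1971). The ranges of the first 4 overlapped, but ranges over hearts do not compare genes within a heart. In every heart Rpl41 was below Rplp1 and Rps14, while the order of Rplp1, Rps14 and Rplp0 changed between hearts. The proteins of Rplp1 and Rplp2 go into the particle as pairs, and Rplp2 had a mean of 717 FPKM. The 5 lowest were Rpl22l1 (25.9 FPKM), Rpl23a (20.97), Rpl24 (1.43), Rpl3l (0.537) and Rpl39l (0.256), of which Rpl23a and Rpl24 encode proteins found in every ribosome.

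**Figure D3:**
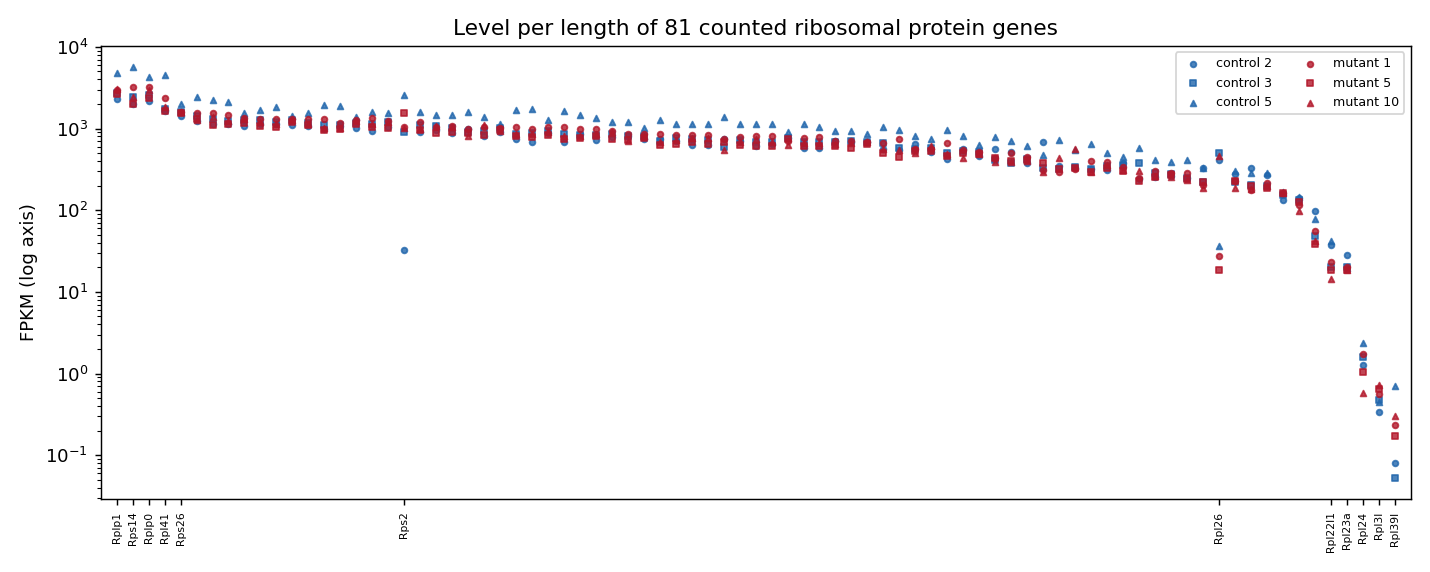
FPKM on a log axis (vertical) of 81 counted ribosomal protein genes ordered by their mean over the hearts (horizontal, with the 5 genes at each end, Rps2 and Rpl26 named), with 1 point per heart, controls in blue and mutants in red. Most genes lie within a narrow band, control replicate 5 tops most columns, and Rps2 and Rpl26 show hearts far below the others.

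Of the 5 lowest genes, Rpl22l1, Rpl23a and Rpl24 have near-identical copies at other loci, and none was found for Rpl3l and Rpl39l. Only uniquely mapped reads were counted. A near-identical copy had at least 95% identity over at least 80% of the coding sequence. Only loci annotated as pseudogenes, or named as pseudogenes or Gm genes, were kept as copies. Of the 82 genes, 74 had such a copy, 571 in all, of which 464 are listed in the counts. Rps4l, without an annotated coding sequence, was not searched, and Rps27rt is not among the copies. The listed copies held 0.403% to 0.661% of all counts. For 15 of the 82 genes no 150-base stretch of the transcript, the length of 1 read, occurs exactly in a gene elsewhere, and for 17 more than 50% of such stretches do. Of 71 genes with counts on listed copies, the gene itself held over 90% of the joint counts in every heart for 44. It held under 50% in every heart for 4. Rps27 is among the 44, but its joint counts leave out those on Rps27rt. Rpl23a kept 6.04% to 13.4% of the joint counts and Rpl24 9.64% to 24.3%, at 16 to 55 counts a heart. Of the exon bases of Rpl23a, 59.7% are shared with Tlcd1 on the opposite strand, which held 343 to 528 counts a heart. Rpl23a itself held 483 to 865, and the strand setting of the counting is not given. Of the 150-base stretches of Rpl24, 63.6% also lie in a gene annotated over it on the same strand (Gm28037, at 0 counts in every heart), where an assignment to 1 gene is ambiguous. Reads that match another locus equally well were not counted for any gene, and their part in these low levels was not tested.

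For Rpl26, which sits beside the exit tunnel, the split of counts between the gene and its nearest copy differed strongly between hearts. Its exons on chr11:68901583-68906989 (GENCODE M21, GRCm38, plus strand) spell a coding sequence of 438 bases, and Gm15772 on chr5:3236431-3236868 (plus strand), found as its nearest copy by sequence, differs at 2 of them. The differences are C177T and T288C, with the Rpl26 base first and positions counted from 1 at the first base of the start codon. The bases around each, with the differing base in capitals, are shown because they are where the coding sequences can be told apart. Of the 150-base stretches of the 526-base Rpl26 transcript, 8.75% occur exactly in a gene elsewhere.
Rpl26, coding bases 163 to 191: gttcaggttgttcgCggacactacaaagg
Gm15772, the same stretch: gttcaggttgttcgTggacactacaaagg
Rpl26, coding bases 274 to 302: ggcacaaccgtccaTgtgggcatccaccc
Gm15772, the same stretch: ggcacaaccgtccaCgtgggcatccaccc

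Rpl26 itself was given 13160, 15896 and 917 counts in control replicates 2, 3 and 5, and 807, 549 and 13831 in mutant replicates 1, 5 and 10. Gm15772 was given 13576, 17551 and 40749 in control replicates 2, 3 and 5, and 32069, 29415 and 15738 in mutant replicates 1, 5 and 10. Controls 2 and 3 and mutant 10 thus had both loci at similar counts, and in control 5 and mutants 1 and 5 nearly all counts were on the copy. As a share of the counts on Rpl26 and its 4 listed copies, Rpl26 held 48.9, 47.2 and 2.19% in control replicates 2, 3 and 5, and 2.44, 1.82 and 46.6 in mutant replicates 1, 5 and 10. The hearts fell at 1.82% to 2.44% or at 46.6% to 48.9%, with hearts of both genotypes at each level. The Rpl26 row alone spanned 26.4-fold between hearts and had a log2 fold change of -0.82 (SE 1.25), which ran from -3.77 without mutant replicate 10 to -0.30 without mutant replicate 5. With the copies added it spanned 1.99-fold, and the log2 fold change was -0.17 (adjusted p = 0.985 in edgeR).

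Rps2, a protein of the small subunit's messenger entry site, fell into 3 levels. It held 2.86, 52.98 and 89.4% in control replicates 2, 3 and 5, and 53.7, 89.3 and 52.4 in mutant replicates 1, 5 and 10, of the counts on itself and its 21 listed copies. In control replicate 2 the gene had 1575 counts while Rps2-ps10 had 39407 and Rps2-ps13 had 12871. In control replicate 5 it had 98223 while those copies had 4277 and 4043. The gene row spanned 79.8-fold between hearts, the sum with copies 2.55-fold, and the log2 fold change of the row was 0.041 (SE 1.03). Leaving out 1 heart moved it as far as -0.53 without control replicate 2 and 1.38 without control replicate 5. Rpl17 held 68.3, 53.5 and 70.1% in control replicates 2, 3 and 5, and 41.3, 62.9 and 74.6 in mutant replicates 1, 5 and 10, of its joint counts, lowest where Rpl17-ps10 was highest (mutant replicate 1, 14790 counts). Rpl35 held 66.6% in control replicate 2 and 42.7% to 45.05% in the other 5 hearts. These 4 genes were the ones whose share ranged over 20 percentage points, and for 59 of the 71 it ranged under 5. All hearts come from a C57BL/6 x DBA/2 background and were aligned to 1 reference genome. The alleles each heart carried at these loci were not examined, and their part in these shares was not tested. Adding copies changed little in the shared pattern: control replicate 5 held the highest level of 75 of 80 genes, and the median log2 fold change was -0.20.

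**Figure D4:**
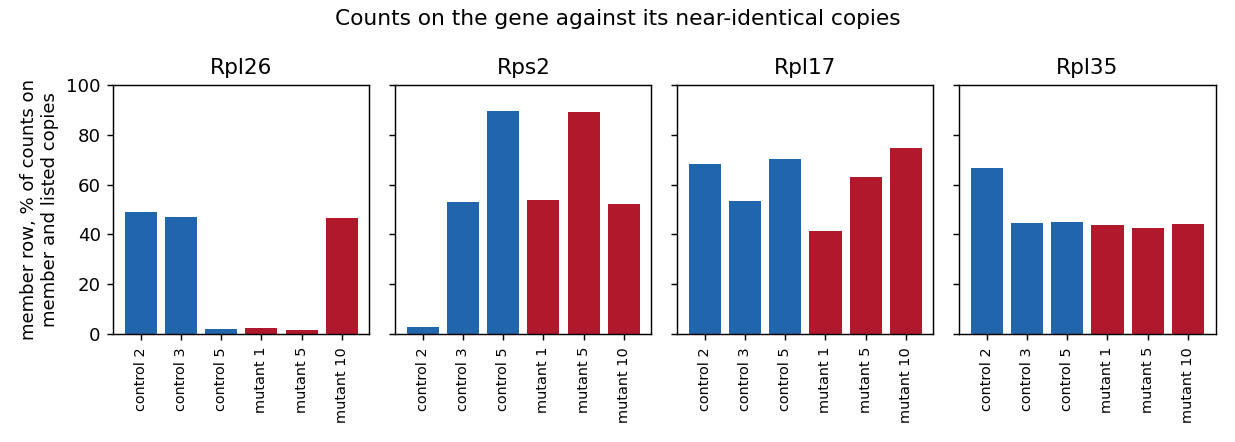
Counts on the gene row as a percent of the counts on the gene and its listed near-identical copies (vertical axis) in each heart (horizontal axis) for Rpl26, Rps2, Rpl17 and Rpl35, with controls in blue and mutants in red. Rpl26 falls at 1.82% to 2.44% in 3 hearts and at 46.6% to 48.9% in the other 3, and Rps2 takes its lowest value of 2.86% in control replicate 2.

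Paralogs of common ribosomal protein genes, and Rps4l, annotated as a pseudogene, were compared with the common form per length. Each was taken as a percent of the summed FPKM of the pair. Rpl3l, the striated muscle form that takes over from Rpl3 in the mature heart, was barely counted, with 19, 27 and 20 counts in control replicates 2, 3 and 5, and 29, 34 and 39 in mutant replicates 1, 5 and 10. Every mutant lay above every control, with a fitted log2 fold change of 0.65 (SE 0.35, adjusted p = 0.939 in edgeR). It made up at most 0.0909% of its pair, whose common form Rpl3 was at 742 to 1004 FPKM. Rpl22l1 made up 9.16, 4.51 and 6.37% in control replicates 2, 3 and 5, and 4.91, 4.29 and 3.42 in mutant replicates 1, 5 and 10, of the pair with Rpl22. The mutant mean was 4.21% ± 0.750 and the control mean 6.68% ± 2.34 (SD, n = 3 each), and control replicate 3 lay within the mutant range.

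Rps27l, a p53 target, reached 22.7% to 30.03% of its pair with Rps27, with overlapping groups and its lowest share in control replicate 5. Of the 150-base stretches of the Rps27 transcript, 97.96% occur exactly elsewhere, so its own level is uncertain. Rps4l, annotated in GENCODE M21 as a transcribed processed pseudogene, made up 10.6, 10.8 and 10.5% in control replicates 2, 3 and 5, and 11.1, 11.9 and 11.1 in mutant replicates 1, 5 and 10, of the pair with Rps4x. The groups did not overlap on this share, with means of 10.6% ± 0.136 in controls and 11.4% ± 0.465 in mutants. Its own log2 fold change was 0.14 (SE 0.12, adjusted p = 0.985 in edgeR), with 0.047 without control replicate 2 and 0.24 without control replicate 5. Rpl39l, known from male germ cells, was counted at 2 to 21 counts a heart and was too low to be tested, and Rpl10l, likewise a germ cell form, had 0 counts in all 6 hearts, while Rpl39 and Rpl10 had 389 to 791 and 1024 to 1366 FPKM.

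**Figure D5:**
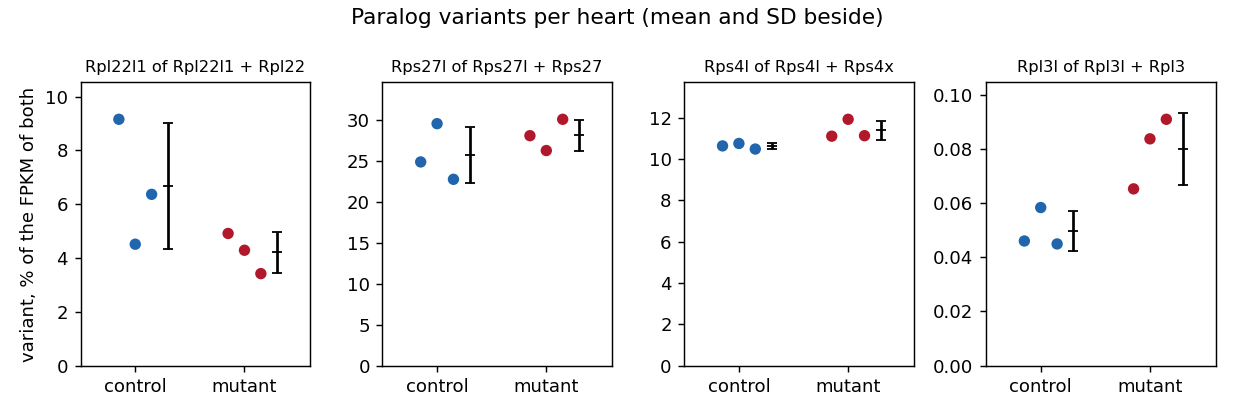
Share of the variant in the summed FPKM of variant and common form (vertical axis, percent) in controls (blue) and mutants (red) for 4 pairs, with 1 point per heart and the mean and SD beside the points. Rps4l lies at 10.5% to 11.9%, Rps27l at 22.7% to 30.03%, and Rpl3l at no more than 0.0909%.

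Genes that build ribosomes did not share the height of the ribosomal protein genes in control replicate 5. Of 57 ribosome biogenesis genes, 49 had a fitted value below 0, with a median log2 fold change of -0.069 and -0.12 without that heart, where their median deviation was -0.11. The 15 RNA polymerase I and Myc genes had a median of -0.070. For neither list did a gene reach an unadjusted p under 0.05 in edgeR, the smallest being those of Rrp9 (-0.21, adjusted p = 0.939), Tsr2 (-0.19, adjusted p = 0.939), Polr1e (0.16, adjusted p = 0.968) and Taf1a (-0.18, adjusted p = 0.985). The 45 translation factors had 22 above and 23 below 0. Of them, 1 was higher at an unadjusted p under 0.05 in edgeR, against 3.14% of all genes. It was Eef1a2 (0.32, adjusted p = 0.839), the elongation factor form of muscle and neurons. Eif3d followed with -0.19 (adjusted p = 0.924). Among 28 genes of mTOR signalling, the S6 kinases and p53 surveillance, 1 was higher at that threshold, against 3.14% of all genes. It was Eda2r (0.44, adjusted p = 0.582), a receptor induced by p53, followed by Mdm2 (0.23, adjusted p = 0.892).

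Ribosomal proteins that the naming rule missed went with the others. Of 6 tested, 5 were below 0 with a median of -0.19, or 0.045 without control replicate 5, where their median deviation was 0.52. At an unadjusted p under 0.05 in edgeR 1 was lower, against 2.59% of all genes. Rps27rt, a close copy of Rps27, had a log2 fold change of -0.65 and -0.14 without that heart. Of 76 mitochondrial ribosomal protein genes, 62 were below 0 with all hearts (median -0.053) and 15 without control replicate 5 (median 0.084). Mrps34 was the only one at an unadjusted p under 0.05 in edgeR, where 2.59% of all genes were lower and 3.14% higher. Its log2 fold change was -0.38 (adjusted p = 0.827), and Mrps18c followed at -0.47 (adjusted p = 0.915). Leaving out control replicate 5 turned the sign of both medians. With the length trend removed and all hearts kept, 38 of 76 mitochondrial genes were below 0 and 68 of 80 cytosolic ones. The part of that heart's cell makeup or depth in these values was not tested.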

How the data were processed

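RNA of 6 single whole hearts was sequenced as 150-base read pairs. Per the study's methods, the authors aligned trimmed reads to mm10 (STAR) and let featureCounts assign those that mapped uniquely, while the submitters' processing notes name HTSeq and DESeq2. The strand setting of the counting is not given in the sources used here. The deposited values were raw counts per gene and FPKM, in which each count is divided by 1 length per gene and by the total of the heart. edgeR 4.0.16 (R 4.3.3) compared mutant with control hearts on the deposited counts by its quasi-likelihood test, two-sided, with TMM normalization, filterByExpr (minimum count 10, total 15) and Benjamini-Hochberg adjustment over all genes tested, at 0.05. CPM are TMM-normalized. Nothing in the labels ties hearts to litters. The p-values set the group difference against the spread between these hearts, part of which may be technical. DESeq2 1.42.0, limma 3.58.1 (on deposited FPKM with a pseudocount of 1 or 0.1, log2 scale), other scalings, no filter, a local regression on gene length (span 0.5) and each heart left out were the alternatives. Near-identical copies were found with BLAST 2.17.0 against GENCODE M21 transcripts and added after the data were seen, as was centring on the member median. Scripts were tested on simulated data. The genes and lists were chosen with earlier results of these data known. Named were the members with the smallest p in each direction, paralog pairs, the 5 highest and lowest, and the stalk genes. Also named were 7 members of known importance, the most and least variable, and 2 genes of each list. Chosen after their values were seen were the copies, the 4 genes whose share of joint counts ranged most, and those named by group separation. Values of 2 genes are not reported here. No column of samples was left unmapped.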

Additional observations from a re-analysis of the deposited data

How the results depend on the processing

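No ribosomal protein gene passed the adjusted threshold under any alternative. The median log2 fold change of -0.21 ranged from -0.32 to 0.076 when 1 heart was left out, above 0 without control replicate 5 (0.076) and below it without any other, and from -0.24 to -0.11 under the other scalings, filters and tools. The number of genes below 0 (74 of 80) ranged, with 1 heart left out, from 24 of 80 without control replicate 5 to 79 of 81 without control replicate 2. The mutant minus control difference in the share of counts, -0.706 percentage points, ranged from -1.32 to 0.277, positive without control replicate 5 (0.277), and from -0.757 to -0.733 with copies added or on nuclear counts. The number of genes lower at an unadjusted p under 0.05 was 6 of 80 in edgeR, 10 of 81 with DESeq2 and 2 of 80 with the length trend removed. With 1 heart left out it was 2 to 14. It was 2 of 81 without control replicate 2 (Rpl7a and Rps12, neither among the 6) and 14 of 81 without control replicate 3. It was 2 of 81 without mutant replicate 1 and 2 of 80 without mutant replicate 10. Over all genes and both directions, 1002 of 17473 passed in edgeR, 1156 of 26776 with DESeq2 and 1175 of 17473 with the length trend removed. Without control replicate 2 or 3, 1023 of 17894 or 902 of 17870 passed. Without mutant replicate 1 or 10, 1127 of 17871 or 619 of 17975 passed. The cause was not tested. At the adjusted threshold, 0 of all genes were called in edgeR, 133 with DESeq2, 34 without a filter, 13 with the length trend removed and 44 without control replicate 5. The members with the smallest p in each direction kept their direction under every alternative run. They were picked by p in these same hearts, which every alternative reuses, so the kept direction is not independent support. No paired analysis was possible because the groups share only replicate number 5. With 3 hearts a group, values of members with many copies, overlapping genes or few counts (Rpl24, Rpl3l) are the least certain.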
